A study of Mus musculus with 10 samples.

Results

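The transcripts of the epidermal growth factor receptor, Egfr, and of 5 of its ligands, Egf, Hbegf, Areg, Btc and Tgfa, were followed through the nephron of injured mouse kidneys. These 6 genes were taken by name from the 28808 genes of 10 Drop-seq libraries, a droplet method in which each barcode stands for 1 cell and each unique molecular identifier (UMI) for 1 captured transcript. All libraries came from kidney cortex of mice labelled 4 weeks of age. One library was from normal kidneys and served as the control. The other 9 were from injured kidneys, with 1 library each for days 1, 2 and 4 and 2 libraries each for days 7, 11 and 14. The labels used here give no kind of injury, strain, sex or animal, so the 2 libraries of a day may be separate mice or 1 preparation, and p-values may measure technical spread only.

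EGF-family ligands are made as proteins anchored in the cell membrane and are released by proteases such as ADAM17 and ADAM10. A released ligand binds EGFR on the same or a neighbouring cell, the receptor dimerises with itself or with another ERBB receptor, and RAS and ERK signalling follows. In the kidney, EGF is made in the distal nephron and shed into the urine, HB-EGF and amphiregulin are known as ligands of damaged epithelium, and EGFR is present along the tubule.

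Cells were assigned to classes by gates on raw UMIs of 6 marker genes per class, none of which was an EGF-family gene. A cell went to the class with the most different markers and needed at least 2. The thick limb gate (thick ascending limb) used Slc12a1, Umod, Cldn16, Cldn19, Ptger3 and Sfrp1, the distal convoluted gate Slc12a3, Pvalb, Trpm6, Wnk4, Abca13 and Calb1, and the principal gate of the collecting duct Aqp2, Aqp3, Fxyd4, Scnn1b, Scnn1g and Hsd11b2. The proximal gate used Lrp2, Cubn, Miox, Slc27a2, Slc22a6 and Slc17a3, and the podocyte gate included Nphs1, Wt1, Synpo, Ptpro and Cdkn1c. Cells in none of these classes formed a class of their own if they held a UMI of Havcr1, the injury marker KIM-1, and another if they held at least 2 general epithelial markers. Both have no segment and were counted with the gated and tubular cells. Of 50378 cells kept, 47005 went to a class, called gated cells here, and 39097 of those were in the tubular classes together, called tubule-gated cells. Levels are in counts per 1000000 (CPM), the UMIs of a gene per 1000000 UMIs of the class in that library. CPM is thus scaled to total UMIs, mitochondrial ones included, while the tests used TMM scaling, described below. Libraries are listed in the order control, day 1, day 2, day 4, day 7 replicates 1 and 2, day 11 replicates 1 and 2, and day 14 replicates 1 and 2.

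The libraries held 7091848 to 31632205 UMIs each, with 3398 to 6633 cells kept and median depths of 1252.5 to 2662 UMIs per cell. The median mitochondrial share of UMIs was 23.5% in the control, 13.96%, 9.88% and 7.06% on days 1, 2 and 4, and 3.61% and 4.29% on day 7. Day 11 gave 15.2% and 11.8%, and day 14 gave 16.1% and 18.6%. This share moved with the days, and its part in the results below was not tested beyond a stricter limit on it, given among the alternatives. The day 11 libraries lost 5362 and 5424 barcodes with under 500 genes detected, and no other library lost any that way. Libraries shared 58 of 50320 distinct cell barcodes.

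Egf and Areg moved in opposite directions after injury, and the 150 bases upstream of their start sites are shown to set the genes beside each other. Egf lies on the minus strand of chr3:129677565-129755316 and Areg on the plus strand of chr5:91139599-91148432 in GRCm38. The upstream sequences are from RefSeq on GRCm38.p6, written in the direction of transcription, with capitals marking TGACGTCA, the cAMP response element (CRE), and the TATA box, TATAAA.
Egf, chr3:129755323-129755472, minus strand: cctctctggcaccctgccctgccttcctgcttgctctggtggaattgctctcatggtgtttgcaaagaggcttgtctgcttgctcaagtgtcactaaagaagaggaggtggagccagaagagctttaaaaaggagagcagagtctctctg
Areg, chr5:91139449-91139598, plus strand: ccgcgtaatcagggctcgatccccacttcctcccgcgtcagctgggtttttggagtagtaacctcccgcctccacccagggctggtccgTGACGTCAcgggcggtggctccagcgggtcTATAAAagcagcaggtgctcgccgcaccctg
In Areg the CRE began 61 bases and the TATA box 31 bases before the start site. Within 250 upstream bases, searched on both strands, Egf, Btc, Tgfa and Egfr held neither motif, and none of these genes nor Areg held the AP-1 motif TGANTCA. Of 32851 such windows in the RefSeq table, 1.55% held TGACGTCA, 12.4% held TATAAA and 6.75% held TGANTCA. These letters describe the windows only. Btc lies on the minus strand of chr5:91357261-91402994, beside Areg on the same chromosome, Tgfa on the plus strand of chr6:86195223-86275719 and Egfr on the plus strand of chr11:16752203-16918158. Antisense genes overlap Egf, Tgfa and Egfr in the annotation, and whether the deposited counts used strand is not given in the sources used here, so reads of these partners cannot be told apart from the members' own.

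Egf, the ligand that gives the family its name, was a transcript of the distal nephron. Thick limb cells held 78.3% of all Egf UMIs in the control and distal convoluted cells 18.9%. Across the 10 libraries the thick limb held 54.6% to 82.4% of them. Egf was 4.10 log2 units higher in thick limb cells than in all other gated cells of the same libraries (SE 0.22, higher in 10 of 10 libraries, edgeR quasi-likelihood adjusted p = 9.4e-09), in a comparison where 54.6% of genes tested passed the adjusted threshold of 0.05. The value was 5.51 when cells that also met the minimum of a second gate were left out. In distal convoluted cells it was 2.05 higher (SE 0.16, 10 of 10 libraries, edgeR adjusted p = 5.73e-09), with 44.4% of genes called. Set directly against distal convoluted cells, thick limb cells were 0.44 higher (SE 0.13, higher in 9 of 10 libraries, edgeR adjusted p = 0.0232, 21.1% of genes called). That last difference lost its call when day 7 replicate 2 (0.38, edgeR adjusted p = 0.0571), day 11 replicate 2 (0.40, adjusted p = 0.0713), day 14 replicate 1 (0.37, adjusted p = 0.0913) or day 14 replicate 2 (0.41, adjusted p = 0.0638) was left out, and came to 1.21 with second-gate cells left out (edgeR adjusted p = 2.06e-05).

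**Figure D1:**
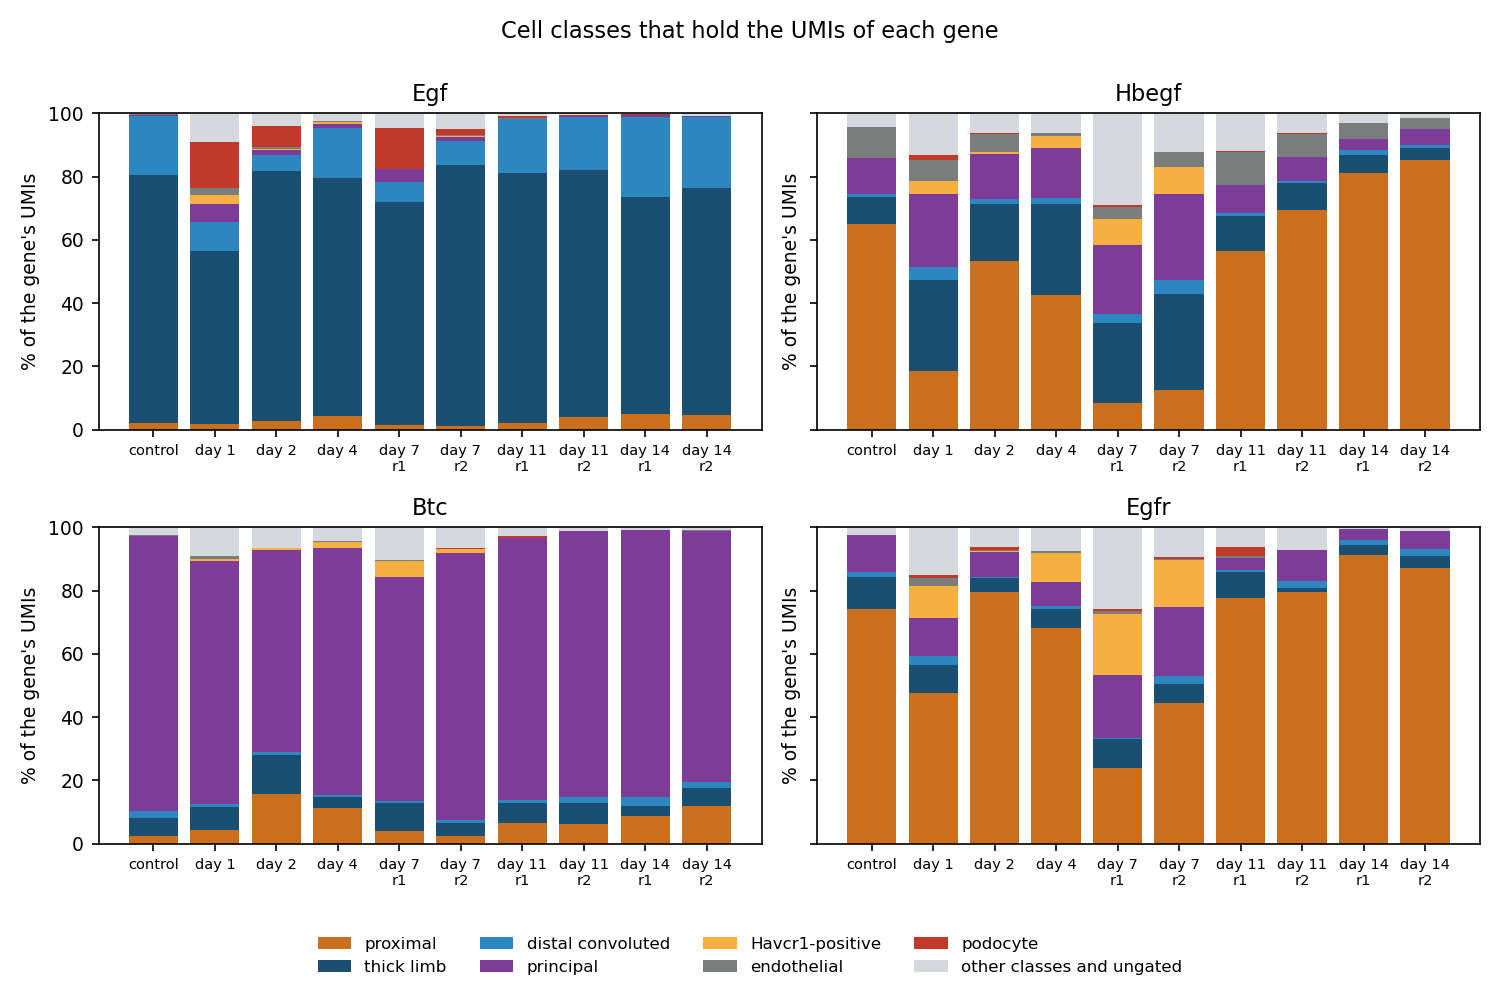
Share of the UMIs of Egf, Hbegf, Btc and Egfr (vertical axis, percent of the gene's UMIs in kept cells) held by each cell class, in each of the 10 libraries (horizontal axis). Egf stayed mostly in the thick limb and distal convoluted classes and Btc in the principal class, while the Hbegf and Egfr bars changed class with the day. Shares follow both cell numbers and level per cell.

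The Egf level in thick limb cells was 7130 CPM in the control. It was 53.0 on day 1, 178 by day 2 and 800 by day 4. On day 7 it was 80.9 and 429, on day 11 it was 2179 and 2924, and on day 14 it was 6105 and 5832. All 5 libraries of days 1 to 7 lay below both day 11 libraries, which lay below both day 14 libraries, and the control lay highest. The control was 134-fold above day 1, 40.0-fold above day 2 and 8.91-fold above day 4, each from 1 library a day, with no test. The fall was thus already deepest in the library of day 1, and day 4 was not on a straight path to day 7, whose replicates themselves differed 5.30-fold.

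Tested between days, Egf in thick limb cells fell by 5.42 on the log2 scale from control to day 7, a 42.9-fold difference (SE 0.55, edgeR adjusted p = 1.07e-05), in a comparison with 22.1% of genes called. The SE is the one that gives the test's F value, and the single control was assumed to vary like the replicated days. The value was -4.69 without day 7 replicate 1 and -7.15 without day 7 replicate 2, both called. From day 7 to day 14 Egf rose by 5.12 (SE 0.52, edgeR adjusted p = 8.2e-06, 22.4% of genes called), with 4.39 and 6.85 without day 7 replicates 1 and 2. Day 11 was 1.58 log2 units below the control without passing the test (log2 change -1.58, SE 0.51, edgeR adjusted p = 0.0622, 10.1% of genes called). It passed when either day 7 library was left out of the fit (edgeR adjusted p = 1.08e-04 and 6.70e-05). Day 14 stood at -0.30 against the control (SE 0.52, edgeR adjusted p = 0.816, 1.65% of genes called).

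Distal convoluted cells went the same way. Their Egf level was 4210 in the control, then 50.7, 71.96 and 1162 on days 1, 2 and 4. It was 73.3 and 223 on day 7. By day 11 the 2 values were 1656 and 1692, and by day 14 they were 2914 and 3433. Days 1, 2 and 7 lay below all other libraries and the control above them all. These sums rested on 25 to 360 cells, with the fewest in day 7 replicate 1. Many were not clear-cut: 293 of 360 control cells also passed a second gate, against 272 of 745 in the thick limb. Without such cells day 7 replicate 1 had under 20, so day 7 was not fitted within this class. Egf fell by 5.31 from control to day 7 (39.8-fold, SE 0.28, edgeR adjusted p = 6.69e-13, 17.3% of genes called), or by 6.62 without day 7 replicate 2. It was still 1.45 lower on day 11 (log2 change -1.45, SE 0.24, edgeR adjusted p = 4.1e-04, 8.99% of genes called). From day 7 to day 14 it rose by 4.88 (SE 0.26, edgeR adjusted p = 2.01e-13, 22.4% of genes called), or by 6.18 without day 7 replicate 2. Day 14 was at -0.43 against the control (SE 0.24, edgeR adjusted p = 0.35, 3.64% of genes called), and was called with the 2 groups alone (-0.51, edgeR adjusted p = 3.73e-05).

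The fall from control to day 7 was set side by side in the 2 segments with an interaction term. It differed between thick limb and distal convoluted cells by 0.28 log2 units (95% interval -0.20 to 0.76, edgeR adjusted p = 0.843), which did not pass the test and whose sign turned to -0.38 without day 7 replicate 2. In that interaction fit 2.06% of genes were called. The -0.38 lay outside the interval, which does not cover the spread between the day 7 libraries.

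The share of thick limb cells with at least 1 Egf UMI was 96.0% in the control, 11.7%, 25.4% and 30.5% on days 1, 2 and 4, and 10.3% and 25.8% on day 7. The later libraries had 77.0% and 83.9% (day 11) and 96.4% and 97.0% (day 14). Their median depth was 3771 UMIs in the control and 1621.5 to 2589 afterwards. Thinned to 1000 UMIs per cell, the shares were 93.8% in the control, 4.82%, 13.3% and 21.4% on days 1, 2 and 4, and 6.28% and 16.4% on day 7. At day 11 came 62.4% and 77.5% and at day 14 came 94.4% and 92.5%. Thinning left out 15 to 101 shallower cells per library. Days 1 to 7 lay below days 11 and 14 and the control both before and after thinning. T/NK cells, lymphocytes that should lack Egf, gave the background: 23.1% of them held an Egf UMI in the control and 0%, 0% and 1.96% on days 1, 2 and 4, then 0% and 1.15% on day 7, at median depths of 973 to 1276 UMIs.

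Egf was also unevenly spread within the thick limb. The median cell held 20 Egf UMIs in the control, 0 in each library of days 1 to 7, 3 and 4 on day 11, and 14 and 12 on day 14. At least 10 Egf UMIs were found in 541 of 745 control cells and 0 of 597 on day 1. On day 4 there were 40 such cells of 551, on day 7 there were 1 of 340 and 21 of 445, and on day 14 there were 275 of 442 and 250 of 433. On day 4 the top 10% of cells held 91.2% of the class's Egf UMIs, against 59.7% in the control and 49.3% and 47.7% on day 14. On day 4 Egf stood at 961 CPM in the 357 thick limb cells without a Havcr1 UMI and at 581 in the 194 cells with one.

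Egf was set beside 2 of the markers that defined the gate. Set against the control as 100%, thick limb Egf was 0.744% on day 1, 2.50% by day 2 and 11.2% by day 4. It was 1.13% and 6.01% on day 7. Day 11 gave 30.6% and 41.01%, and day 14 gave 85.6% and 81.8%. Slc12a1, the sodium-potassium-chloride transporter of the segment, was at 12.5% to 28.2% on days 1, 2 and 4, and at 26.4% and 37.5% on day 7. It was at 50.8% and 43.98% on day 11 and at 60.4% and 68.8% on day 14. Umod, which encodes uromodulin, was at 57.4%, 60.9% and 72.7% on days 1, 2 and 4 and at 39.6% and 81.8% on day 7. It was at 133.9% and 158.5% on day 11 and at 119.3% and 102.1% on day 14. In every injured library through day 11 the Egf percentage was below that of either marker, by little against Slc12a1 in day 11 replicate 2. On day 14 it was above that of Slc12a1 and still below that of Umod. Both markers were used to gate these cells, and cells with too few gate markers were not in the class, whatever their Egf. The levels of the markers, and Egf beside them, are therefore a description only. Slc12a3, the sodium-chloride transporter that marks distal convoluted cells, moved in these thick limb cells as well, from 8.29 CPM in the control to 149 to 234 on days 1 to 7, 30.4 and 79.4 on day 11 and 183 and 174 on day 14. It was high on day 14 too, when Egf was near the control. With second-gate cells left out, the changes from control to day 7 in the thick limb were -4.96 for Egf and 2.09 for Hbegf, and both kept their calls.

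**Figure D2:**
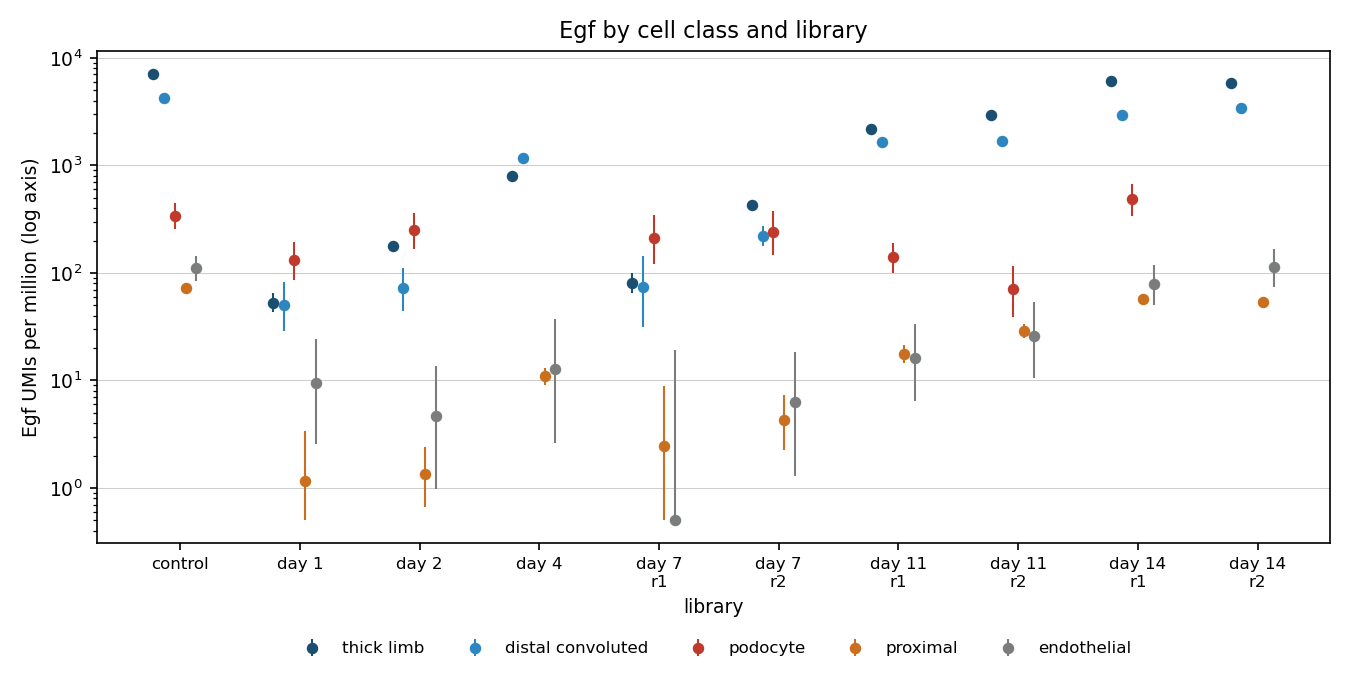
Egf level (vertical log axis, CPM) in 5 cell classes for each library with at least 20 cells of the class (horizontal axis). Points are summed UMIs of 1 library, bars are exact 95% Poisson intervals that cover counting error only, and the endothelial value of 0 in day 7 replicate 1 is drawn at 0.5. Thick limb Egf went from 7130 in the control to 53.0 on day 1 and back to 6105 and 5832 on day 14, while podocyte Egf stayed between 70.2 and 487.

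Proximal and immune cells held low Egf that moved with the distal nephron. Proximal Egf was 72.5 CPM in the control, 1.16, 1.34 and 10.9 on days 1, 2 and 4, and 2.46 and 4.28 on day 7. By day 11 the 2 values were 17.7 and 29.0, and by day 14 they were 57.1 and 53.5. Macrophages, which should lack the gene, had 157 in the control, 9.09, 2.50 and 26.2 on days 1, 2 and 4, 1.92 and 8.27 on day 7 and 168 and 76.6 on day 14. In the control 20.1% of proximal cells held an Egf UMI, below the 23.1% of T/NK cells, and such a share is read as background. Proximal Egf fell by 5.09 from control to day 7 (edgeR adjusted p = 2.93e-06, 37.0% of genes called) and endothelial Egf by 4.74 (SE 0.64, edgeR adjusted p = 1.4e-05, 3.48% of genes called). The endothelial value rests on a library with 0 Egf UMIs and was -8.38 without day 7 replicate 2. The proximal value was -5.80 without day 7 replicate 2.

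Podocytes were the exception, in comparisons added after the data were seen. Their Egf level was 340 in the control, 132 on day 1 and 250 on day 2. On day 7 it was 211 and 242 and on day 11 it was 140 and 70.2. On day 14 replicate 1 it was 487, and the libraries not listed had under 20 podocytes. The day 7 values came from 29 and 44 podocytes and the day 11 values from 222 and 168, beside 71 in the control. Days 2 and 7 lay above both day 11 libraries and day 1 between them, whereas in the thick limb days 1 to 7 all lay below day 11. The change from control to day 7 was -0.76 (SE 0.45, edgeR adjusted p = 0.566, 2.47% of genes called). It became -1.43 and passed the test with doublets kept. Against the thick limb this was a difference of 4.88 log2 units (SE 0.47, 95% interval 3.97 to 5.80, edgeR adjusted p = 8.28e-22), in an interaction fit that called 2.35% of genes. Leaving out day 7 replicate 1 gave 3.90 and leaving out day 7 replicate 2 gave 6.08. Both lay outside the interval. It and the p-values of the differences with day 7 do not cover the spread between the day 7 libraries. From day 7 to day 11 the difference was -4.80 (SE 0.43, edgeR adjusted p = 6.81e-25, 2.02% of genes called), and from control to day 11 it was 0.09 (95% interval -0.74 to 0.91, edgeR adjusted p = 1, 0.351% of genes called).

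Egf was also found in podocytes without markers of the distal segments. Among those with none of the 12 thick limb and distal convoluted markers, an Egf UMI was found in 15 of 41 cells in the control, 12 of 41 on day 1 and 13 of 29 on day 2. On day 7 it was found in 4 of 14 and 9 of 33, on day 11 in 23 of 167 and 8 of 125, and on day 14 in 17 of 28 and 5 of 14. As shares these were 36.6% in the control, 27.3% to 44.8% on days 1 to 7, 13.8% and 6.40% on day 11 and 60.7% and 35.7% on day 14. Endothelial cells chosen the same way gave 13.4% in the control and 0% to 0.930% in the same libraries of days 1 to 7. They gave 3.06% and 5.07% on day 11 and 9.49% and 9.40% on day 14. The podocyte share was the higher one in each of these libraries, but the 95% exact Clopper-Pearson intervals, which cover counting error only, overlapped in day 11 replicate 2 (2.80% to 12.2% against 2.06% to 10.2%) and day 14 replicate 2 (12.8% to 64.9% against 4.79% to 16.2%). In the control the shares of all macrophages (19.1%) and T/NK cells (23.1%) were higher than the endothelial one, and that of T/NK cells, 6 of 26, lay within the podocyte interval of 22.1% to 53.1%. These shares were not thinned, and the podocytes were the deeper cells in all of these libraries but that of day 1, with median depths of 1924 against 1265 UMIs in the control, 1179 against 1220 on day 1 and 2099 against 1397 on day 2. Egf was 3.08 log2 units higher in podocytes than in endothelial cells of the same libraries (SE 0.45, higher in 8 of 8 libraries, edgeR adjusted p = 2.01e-04, 44.8% of genes called). Between control and day 11 podocyte Egf fell by 1.63 (SE 0.43, edgeR adjusted p = 0.015, 2.23% of genes called). That call was lost without day 11 replicate 1 (-2.26, edgeR adjusted p = 0.0897) and without day 11 replicate 2 (-1.24, adjusted p = 0.965). It was also lost with no count filter (-1.60, edgeR adjusted p = 0.0727), 3 markers per gate (-1.69, edgeR adjusted p = 0.137) and DESeq2 (-1.67, adjusted p = 1).

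Summed over the tubule-gated cells, Egf was 2006 CPM in the control, 19.4, 28.1 and 151 on days 1, 2 and 4, and 23.5 and 101 on day 7. The later libraries had 529 and 520 (day 11) and 865 and 875 (day 14). This sum mixes the level per cell with the share of distal cells in the suspension. It fell by 5.74 from control to day 7 (SE 0.58, edgeR adjusted p = 4.27e-05, 34.0% of genes called), with -5.04 and -7.23 without day 7 replicates 1 and 2. Over all kept cells it fell by 6.05 (edgeR adjusted p = 1.53e-05, 36.7% of genes called), with -5.39 and -7.45. On day 11 the tubular sum was still 1.93 lower (log2 change -1.93, edgeR adjusted p = 0.0322, 17.3% of genes called), a call lost without either day 11 library (adjusted p = 0.101 and 0.133) and with DESeq2 (-1.97, adjusted p = 0.123). On day 14 it was at -1.12 (edgeR adjusted p = 0.212, 7.24% of genes called), which passed without either day 7 library (edgeR adjusted p = 0.00569 and 0.00527), with no count filter (-1.11) and with the 2 groups alone (-1.20).

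Hbegf, which encodes heparin-binding EGF, a ligand tethered to the cell surface until shed, rose in thick limb and distal convoluted cells, where Egf fell. In thick limb cells it was 36.9 CPM in the control, and 324, 301 and 363 on days 1, 2 and 4. On day 7 it was 227 and 404, on day 11 it was 139 and 149, and on day 14 it was 84.4 and 55.9. The control was lowest, the 5 libraries of days 1 to 7 were highest, and days 11 and 14 lay between without overlap. Hbegf rose by 2.45 from control to day 7 (5.45-fold, SE 0.35, edgeR adjusted p = 1.83e-04) and was 1.86 higher on day 11 (SE 0.35, edgeR adjusted p = 0.00557). The day 11 call was lost without day 11 replicate 2 (1.83, edgeR adjusted p = 0.0596). It fell by 1.57 from day 7 to day 14 (SE 0.27, edgeR adjusted p = 7.11e-04). On day 14 it was at 0.88 against the control (SE 0.34, edgeR adjusted p = 0.207). That value passed without day 7 replicate 2 (edgeR adjusted p = 0.0468) and with the 2 groups alone (0.85, edgeR adjusted p = 4.98e-04), and its sign turned to -0.29 when cells that also passed a second gate were left out.

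Distal convoluted Hbegf was 13.2 in the control and 254, 164 and 176 on days 1, 2 and 4. It was 257 and 320 on day 7. At day 11 came 46.6 and 31.6 and at day 14 came 33.8 and 20.6. Libraries of days 1 to 7 did not overlap the others. The rise from control to day 7 was 3.74 (13.4-fold, SE 0.33, edgeR adjusted p = 3.04e-09), and the fall from day 7 to day 14 was by 2.69 (SE 0.26, edgeR adjusted p = 1.09e-08). The day 11 value of 1.44 above the control (SE 0.39, edgeR adjusted p = 0.0218) was lost without day 11 replicate 1 (1.10, edgeR adjusted p = 0.22) and came to 0.07 when cells that also passed a second gate were left out. Day 14 was at 1.05 (SE 0.36, edgeR adjusted p = 0.102), and was called with the 2 groups alone (0.98, edgeR adjusted p = 0.0447). Over all libraries thick limb cells held 0.81 log2 units more Hbegf than distal convoluted cells (SE 0.14, higher in 9 of 10 libraries, edgeR adjusted p = 2.46e-04), a call lost with second-gate cells left out (0.57, edgeR adjusted p = 0.0884).

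Egf and Hbegf were also counted cell by cell in the thick limb. In the control 593 of 745 cells held Egf UMIs and no Hbegf UMI, 5 held Hbegf only and 122 held both. On day 1, 44 of 597 held Egf only, 149 held Hbegf only, 26 held both and 378 held neither. In day 7 replicate 1 there were 21 with Egf only and 89 with Hbegf only of 340. In day 7 replicate 2 there were 54 with Egf only, 119 with Hbegf only and 61 with both of 445. On day 14, 372 of 442 and 371 of 433 cells held Egf only, and 1 and 3 held Hbegf only. On day 2 there were 27 with Egf only and 61 with Hbegf only, and on day 4 there were 90 and 131. Cells with Hbegf only outnumbered those with Egf only in every library of days 1 to 7. They were the fewest of these kinds in the control and on days 11 and 14. Cells with no UMI of a gene may still express it at this depth.

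The thinned share of thick limb cells with Hbegf was 3.56% in the control, 18.1%, 21.03% and 20.7% on days 1, 2 and 4, and 15.5% and 19.3% on day 7. Day 11 gave 7.62% and 8.71%, and day 14 gave 3.62% and 2.91%. Before thinning the control share was 17.05% and those of days 1 to 7 were 29.3% to 40.4%. T/NK cells, the background class, had an Hbegf UMI in 0% to 9.09% of cells.

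In the proximal tubule Hbegf was at its highest level on day 11. Its level there was 108 in the control, 143, 200 and 128 on days 1, 2 and 4, and 101 and 120 on day 7. By day 11 the 2 values were 213 and 231, and by day 14 they were 158 and 173. Day 7 lay around the control and day 11 above all other libraries. With TMM scaling, which sets the median gene near no change, proximal Hbegf fell by 0.82 from control to day 7 (SE 0.22, edgeR adjusted p = 0.0117), but scaled to total counts the sign turned (0.05, not called). Day 11 was 0.89 above the control (SE 0.22, edgeR adjusted p = 0.0159, 22.5% of genes called), a call lost without day 11 replicate 2 (0.84, edgeR adjusted p = 0.0921). Day 11 was 1.72 above day 7 (edgeR adjusted p = 3.33e-05, 36.6% of genes called), or 0.99 scaled to total counts.

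In principal cells Hbegf was 124 in the control, 361, 189 and 216 on days 1, 2 and 4, and 162 and 248 on day 7. The later libraries had 324 and 339 (day 11) and 81.2 and 110 (day 14). Day 1 and day 11 were highest and day 14 lowest. Day 11 was 1.41 above the control (SE 0.31, edgeR adjusted p = 0.0113, 6.79% of genes called), a call lost without day 11 replicate 2 (1.38, edgeR adjusted p = 0.089), and Hbegf fell by 1.65 from day 11 to day 14 (edgeR adjusted p = 4.63e-04, 6.18% of genes called).

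Of the classes with at least 20 control cells, endothelial cells had the highest Hbegf in the control, at 462. They had 311, 265 and 174 on days 1, 2 and 4, and 189 and 299 on day 7. At day 11 came 543 and 600 and at day 14 came 491 and 390. Days 1 to 7 lay below all other libraries. Hbegf was 0.80 higher in endothelial cells than in the other gated cells (SE 0.17, higher in 10 of 10 libraries, edgeR adjusted p = 8.88e-04, 60.6% of genes called). From control to day 7 it fell by 1.10 (SE 0.31, edgeR adjusted p = 0.0393). That call was lost without day 7 replicate 1 (-0.88, edgeR adjusted p = 0.113), day 11 replicate 1 (-1.10, adjusted p = 0.085) or day 11 replicate 2 (-1.11, adjusted p = 0.0673). It was also lost with total-count scaling (-0.86, edgeR adjusted p = 0.142), DESeq2 (-1.15, adjusted p = 0.51) and second-gate cells left out (-0.75, edgeR adjusted p = 0.306). Endothelial Hbegf rose by 1.42 from day 7 to day 11 (edgeR adjusted p = 7.84e-04, 8.06% of genes called).

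**Figure D3:**
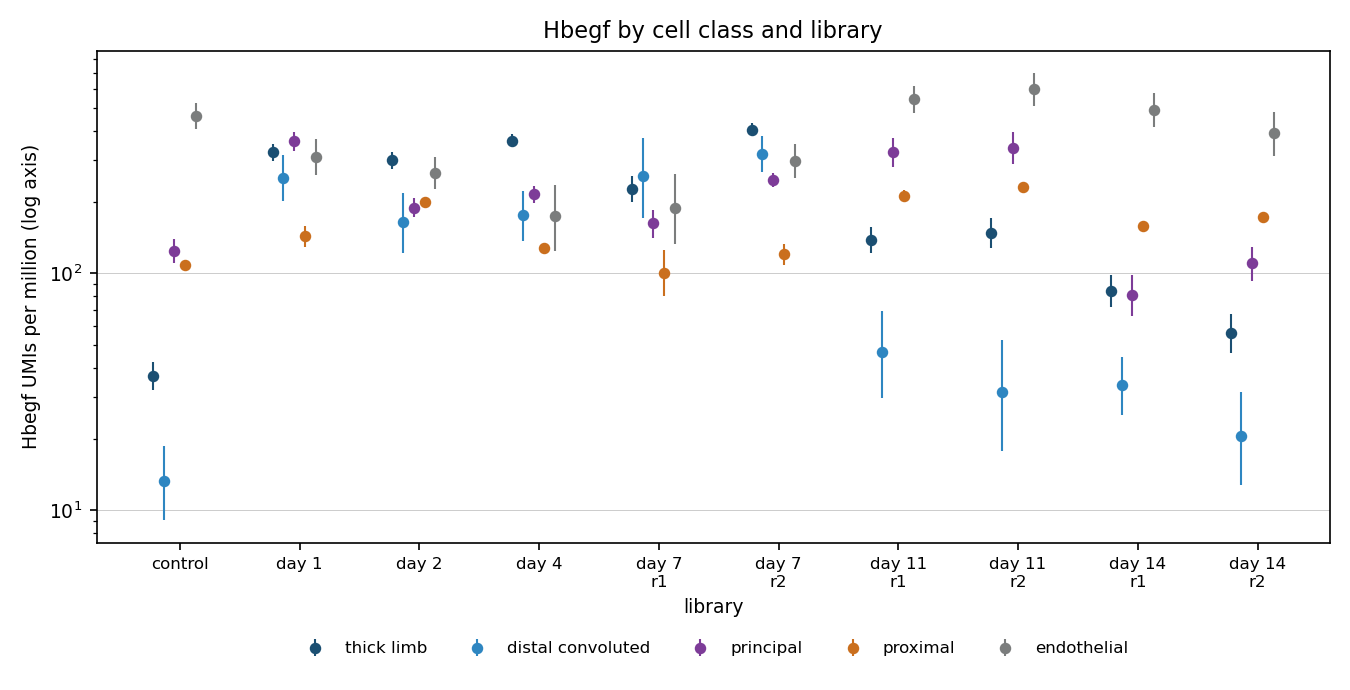
Hbegf level (vertical log axis, CPM) in 5 cell classes for each library (horizontal axis). Points are summed UMIs of 1 library and bars are exact 95% Poisson intervals that cover counting error only. Thick limb Hbegf went from 36.9 in the control to 227 to 404 on days 1 to 7, distal convoluted Hbegf from 13.2 to 164 to 320, while the proximal level on day 7 (101 and 120) lay around its control of 108.

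The classes that held Hbegf changed with the day. Proximal cells held 64.9% of Hbegf UMIs in the control, 18.4%, 53.3% and 42.6% on days 1, 2 and 4, and 8.4% and 12.5% on day 7. Day 11 gave 56.4% and 69.4%, and day 14 gave 81.0% and 85.1%. The thick limb held 8.5% in the control and 28.9% on day 1. It held 25.2% and 30.5% on day 7, but 5.7% and 4.0% by day 14. Principal cells held 11.4% in the control, 21.8% and 27.2% on day 7 and 3.5% and 5.2% on day 14. Day 7 stood apart from the control and day 14 in all 3 shares, which follow cell numbers as well as levels. Over tubule-gated cells Hbegf was 84.9 in the control, 246, 210 and 175 on days 1, 2 and 4, and 179 and 246 on day 7. By day 11 the 2 values were 205 and 215, and by day 14 they were 136 and 145. In these total-count levels all 9 injured libraries lay above the control. Its change from control to day 7 was 0.55 (SE 0.25, edgeR adjusted p = 0.115), which passed scaled to total counts (1.33) and without day 7 replicate 1 (0.80, edgeR adjusted p = 0.0101). Day 11 was 1.31 above the control (edgeR adjusted p = 0.00906). Macrophages held 0 Hbegf UMIs in the control and levels of 42.1 and 25.1 on day 7, with no fold given against the 0.

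Areg, which encodes amphiregulin, had 6 UMIs in the control, none of them in proximal cells, and was found in proximal cells after injury. Proximal Areg was 0 UMIs in the control, 7, 19 and 405 on days 1, 2 and 4, 8 and 26 on day 7, 1 and 1 on day 11 and 0 in both libraries of day 14. As levels these were 2.72, 2.31 and 35.1 on days 1, 2 and 4 and 9.83 and 8.55 on day 7. Against a floor of 3 UMIs in the control, the observed level was 13.96-fold higher on day 1, 11.9-fold on day 2 and 180.1-fold on day 4. On day 7 it was 50.5-fold and 43.9-fold higher. These folds cover neither the counting error of the few injured UMIs nor the spread between libraries, and day 4 is 1 library. Over the 10 libraries proximal Areg did not pass the test against the other gated cells (0.64 log2 units, SE 0.61, higher in 4 of 10 libraries, edgeR adjusted p = 0.376, 66.2% of genes called). On day 1 proximal cells held 7 of the 50 Areg UMIs. Other tubular classes were as high or higher on some days. Tubular cells without a segment had 27.4 CPM on day 1 (9 UMIs in 3 cells) and 36.7 on day 4 (11 UMIs in 6 cells), cells with Havcr1 and no segment 11.8 and 29.0, and the thick limb 5.02 on day 1.

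Few proximal cells carried the Areg of day 4. An Areg UMI was found in 130 of 2506 cells, 76 of them with a single UMI, and the most in 1 cell was 50. The 10 cells with the most held 179 UMIs, 44.2% of the class's total. Proximal cells held 79.3% of all Areg UMIs of that day, while on day 2 macrophages held 51.1%, at 29.9 CPM after 45.4 on day 1. The macrophage values rest on 24 UMIs in 3 of 209 cells on day 2 and 5 UMIs in 3 of 66 cells on day 1, and the proximal values of days 1 and 2 on 4 cells each. Endothelial cells, the background class, had an Areg UMI in 2.19% of cells on day 4 (3 of 137) and in none in every other library.

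Areg was also set beside Havcr1 within the proximal tubule. Of proximal cells with a Havcr1 UMI, 0.889%, 2.22% and 7.82% held an Areg UMI on days 1, 2 and 4 and 3.05% and 4.36% on day 7. Of those without, 0%, 0% and 2.09% did on days 1, 2 and 4 and 1.10% and 0.450% on day 7. The cells with Havcr1 were deeper, with median depths of 2336 to 6285 UMIs against 1337 to 2327.5. Thinned to 1000 UMIs, the shares were 3.63% against 1.15% on day 4 and 1.48% against 0.529% in day 7 replicate 2, but 0.546% against 1.52% in day 7 replicate 1 and 0% in both on day 2. On the CPM scale, which divides by depth, day 4 stood at 46.1 against 11.2 and day 7 at 10.8 and 10.5 against 6.02 and 1.51. The summed levels of cells with Havcr1 were higher in 5 of 5 libraries. Areg passed the count filter of the paired comparison only with the day 4 library in it, so no test of this difference is given.

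**Figure D4:**
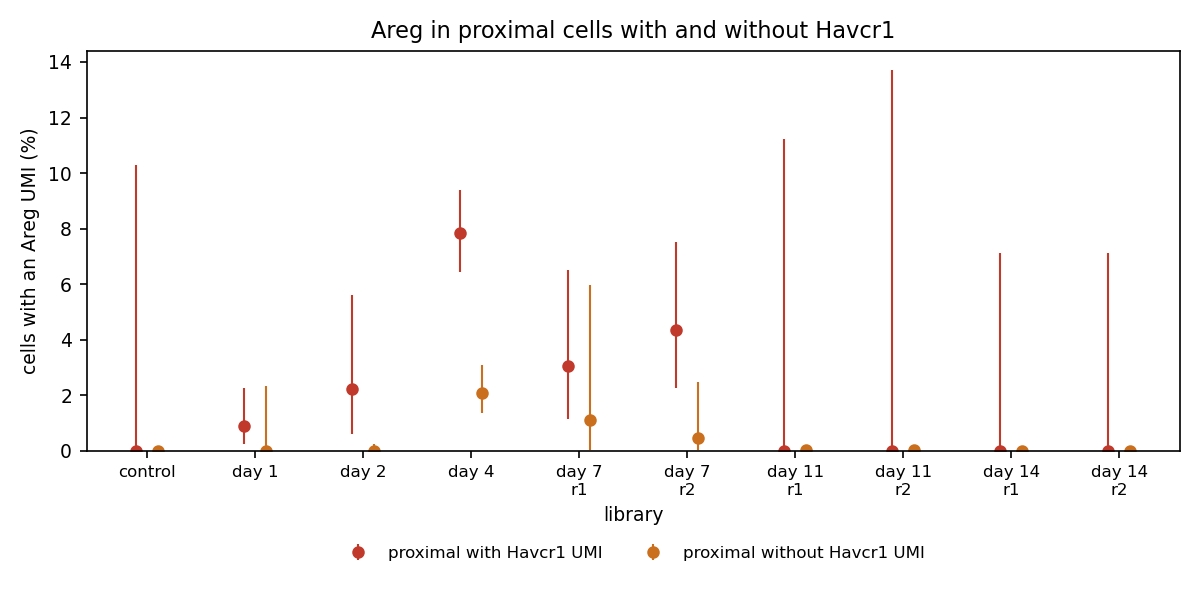
Share of proximal cells with an Areg UMI (vertical axis, percent) in each library (horizontal axis), for cells with and without a Havcr1 UMI, before thinning. Points are 1 library each and bars are exact 95% Clopper-Pearson intervals that cover counting error only. On day 4 the shares were 7.82% and 2.09%, and the control and day 14 had none in either kind of cell.

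Across tubule-gated cells Areg was 0.224 CPM in the control, 4.41, 1.52 and 25.5 on days 1, 2 and 4, and 3.13 and 3.86 on day 7. The later libraries had 0.107 and 0.109 (day 11) and 0 and 0.0559 (day 14). Days 1 to 7 lay above all others. As for Egf, this sum mixes the level per cell with the share of each class. Areg rose by 3.17 from control to day 7 (SE 0.56, edgeR adjusted p = 0.00146), a value of 7.88 with second-gate cells left out, and fell by 5.87 from day 7 to day 14 (SE 0.67, edgeR adjusted p = 4.53e-05, 46.0% of genes called). The second value was -4.97 without day 14 replicate 1 and -8.07 without day 14 replicate 2, and it rests on 0 and 1 Areg UMIs in the tubule-gated cells of day 14, so its size depends on the fit's prior.

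Btc, which encodes betacellulin, a ligand of both EGFR and ERBB4, belonged to the collecting duct. Principal cells held 87.1% of its UMIs in the control and 63.8% to 84.6% in the injured libraries. Btc was 4.95 log2 units higher in principal cells than in the other gated cells (SE 0.34, higher in 10 of 10 libraries, edgeR adjusted p = 8.02e-08, 53.8% of genes called). The level in principal cells was 334 CPM in the control, 113, 94.3 and 236 on days 1, 2 and 4, and 160 and 192 on day 7. At day 11 came 382 and 431 and at day 14 came 338 and 354. Days 1, 2, 4 and 7 lay below the control and days 11 and 14 above it.

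Btc fell by 1.20 in principal cells from control to day 7 (SE 0.25, edgeR adjusted p = 0.00233, 11.1% of genes called), and by 2.10 with second-gate cells left out. It rose by 1.48 from day 7 to day 11 (edgeR adjusted p = 7.79e-05, 15.1% of genes called) and was 1.39 above day 7 on day 14 (SE 0.21, edgeR adjusted p = 7.22e-05, 17.8% of genes called). A Btc UMI was found in 52.8% of principal cells in the control, 15.6% to 27.8% on days 1 to 4, 21.4% and 29.4% on day 7 and 38.2% to 45.4% on days 11 and 14. Thinned to 1000 UMIs, with 10 to 150 shallower cells per library left out, the shares were 28.3% in the control, 6.95% to 18.3% on days 1 to 7 and 21.9% to 29.4% on days 11 and 14. Macrophages, a background class here, had one in 0% to 1.52% of cells, at median depths of 1183 to 3257 UMIs against 1503.5 to 3240 in principal cells. T/NK cells had one in 3.85% in the control and 0%, 2.70% and 3.92% on days 1, 2 and 4. Stromal cells had one in 0% in the control and 8.11% on day 2, from 6 UMIs.

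Tgfa, which encodes transforming growth factor alpha, was sparse, with 5 to 32 UMIs per library. Over tubule-gated cells it was 0.187 CPM in the control, 1.99, 0.531 and 1.48 on days 1, 2 and 4, and 2.01 and 2.45 on day 7. Day 11 gave 0.966 and 0.327, and day 14 gave 0.351 and 0.224. Both day 7 libraries lay above the other libraries, replicate 1 by very little over day 1, and the control lay lowest. Here too the sum mixes the level per cell with the share of each class. Tgfa is given over these sums for its few counts. Tgfa rose by 2.78 from control to day 7 (SE 0.80, edgeR adjusted p = 0.0204), or by 2.56, not called, without day 7 replicate 2. It fell by 2.08 from day 7 to day 14 (edgeR adjusted p = 0.0182), a call lost without day 7 replicate 2 (-1.87, adjusted p = 0.0943), day 14 replicate 1 (-2.46, adjusted p = 0.0564) or day 14 replicate 2 (-1.82, adjusted p = 0.109). It was also lost with DESeq2 (-2.15, adjusted p = 0.101) and second-gate cells left out (-2.02, edgeR adjusted p = 0.0656). Macrophages had no Tgfa UMI in any library. Tgfa was higher in principal cells than in the other gated cells in 10 of 10 libraries, and in podocytes in 7 of 8. Neither was tested, and podocytes held 2 Tgfa UMIs in each day 7 library.

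Egfr, the receptor, was higher in proximal cells than in the other gated cells together, and proximal cells held 74.1% of its UMIs in the control, 24.0% and 44.4% on day 7 and 91.2% and 87.2% on day 14. Against the other gated cells proximal cells were 1.72 log2 units higher (SE 0.13, higher in 10 of 10 libraries, edgeR adjusted p = 1.54e-07, 66.2% of genes called). The proximal level was 18.6 CPM in the control, 38.1, 32.9 and 37.1 on days 1, 2 and 4, and 49.1 and 45.7 on day 7. By day 11 the 2 values were 14.5 and 9.92, and by day 14 they were 22.3 and 20.4. On this total-count scale days 1 to 7 lay above all other libraries and day 11 below them. The median gene of the tubule-gated sums also rose on it from control to day 7, as given below. Principal cells had 18.6 in the control, the same as proximal cells, and 6.58 and 16.05 on day 11, the second above the proximal value of that library. Thick limb Egfr ranged from 0.778 to 13.8, and its change from control to day 7 differed from the proximal one by 0.44 (proximal minus thick limb, 95% interval -0.40 to 1.28, edgeR adjusted p = 0.518, 21.7% of genes called).

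From control to day 7 proximal Egfr changed by 0.47 (SE 0.26, edgeR adjusted p = 0.182), which did not pass the test with TMM scaling and did when scaled to total counts (1.34). It fell by 1.22 from day 7 to day 11 (SE 0.24, edgeR adjusted p = 0.00179), or by 1.95 scaled to total counts. From day 11 to day 14 it rose by 0.79 (SE 0.22, edgeR adjusted p = 0.0383, 10.9% of genes called). That call was lost without day 11 replicate 2 (0.54, edgeR adjusted p = 0.336), day 14 replicate 1 (0.71, adjusted p = 0.211) or day 14 replicate 2 (0.86, adjusted p = 0.108). An Egfr UMI was found in 7.12% of proximal cells in the control, 11.1% to 17.7% on days 1 to 7, 2.56% and 1.80% on day 11 and 6.28% and 5.99% by day 14. At 1000 UMIs per cell, with 38 to 667 shallower cells per library left out, the shares were 1.60% in the control, 2.41% to 4.82% on days 1 to 7, 1.61% and 1.23% on day 11 and 2.13% and 2.05% by day 14. The background share in macrophages was 0% to 2.36%, or 0% to 1.73% thinned, so the thinned shares of the control and of days 11 and 14 are near it. Before thinning, neutrophils had 5.32% on day 1 (5 UMIs, 39.8 CPM) and 1.14% on day 2. Stromal cells had 0% on day 1 and 4.05% on day 2.

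Proximal cells with a Havcr1 UMI had Egfr levels of 39.0, 34.7 and 37.8 CPM on days 1, 2 and 4 and 55.6 and 49.6 on day 7. Proximal cells without one had 32.4, 32.2 and 35.4 on days 1, 2 and 4 and 24.1 and 31.8 on day 7. The Havcr1 cells were higher in each of the 5 libraries, but the difference in the paired sums did not pass the test (0.12 log2 units, SE 0.16, edgeR adjusted p = 0.81, 25.4% of genes called). Cells with Havcr1 and no segment had 41.5, 13.2 and 44.7 on days 1, 2 and 4 and 58.7 and 57.0 on day 7.

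**Figure D5:**
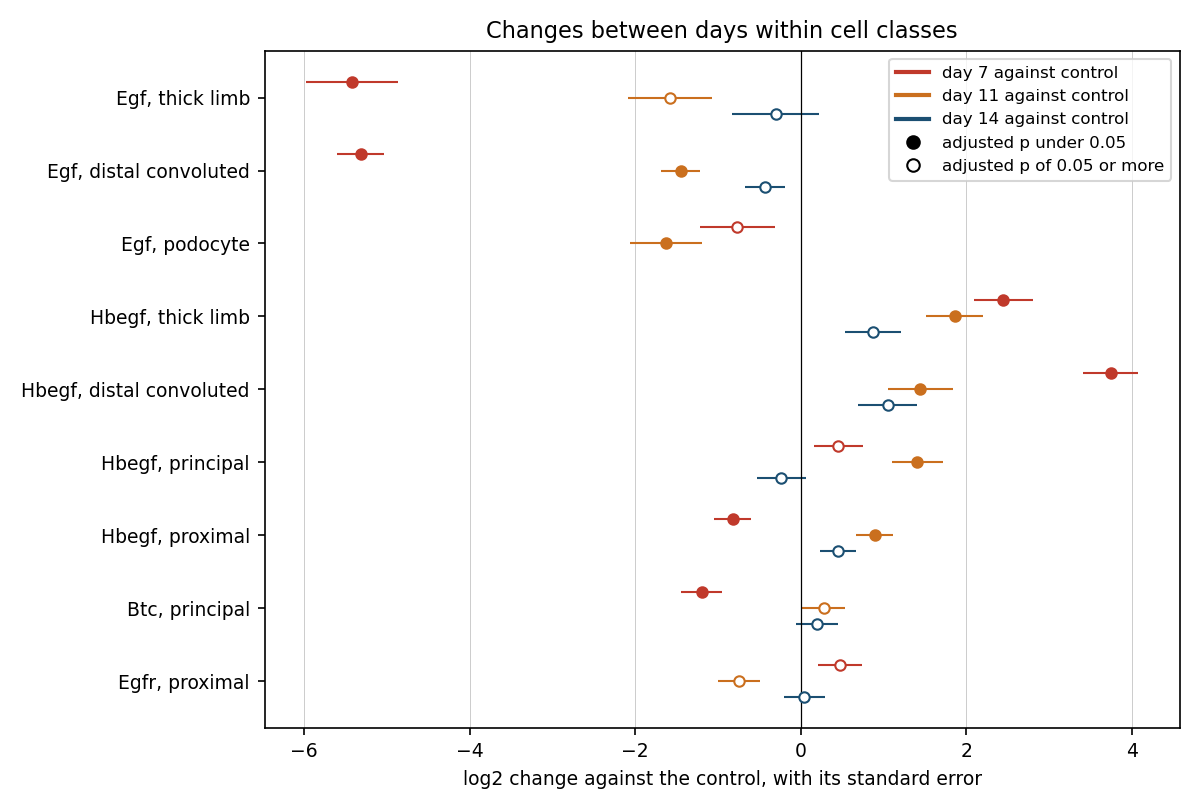
Change against the control (horizontal axis, log2) on days 7, 11 and 14 for Egf, Hbegf, Btc and Egfr in the cell classes listed (vertical axis). Points are edgeR estimates with TMM scaling, bars are standard errors, filled points passed the adjusted threshold of 0.05 and open points did not. Egf was lowest on day 7 in thick limb (-5.42) and distal convoluted cells (-5.31) where Hbegf was highest (2.45 and 3.74), and the day 7 fall of proximal Hbegf (-0.82) turned to 0.05 when scaled to total counts.

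Scaling moved the comparisons with day 7, and the CPM levels above are scaled to total counts. With libraries scaled to total counts the median gene of the tubule-gated sums rose by 0.82 from control to day 7, against 0.05 with TMM, and of the genes called the share that rose went from 47.8% to 87.4%. The day 7 changes of proximal Hbegf and Egfr and of tubular Hbegf were of about that size or smaller. Larger changes moved too but kept their calls: from control to day 7 thick limb Egf was at -4.77 in place of -5.42, thick limb Hbegf at 3.11 in place of 2.45, tubular Areg at 3.94 in place of 3.17 and tubular Tgfa at 3.54 in place of 2.78.

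The rest of the pathway was read from lists of genes, in tubule-gated cells between control and day 7. There 34.0% of genes were called and the median gene changed by 0.05. These sums mix the level per cell with the share of each class, and the part of either was not tested. Of the other receptors 1 of 3 rose and 1 fell: Erbb3, which binds neuregulins but signals through its partners, rose by 0.82 (edgeR adjusted p = 0.0206), Erbb4 fell by 1.24 (edgeR adjusted p = 0.00162), and Erbb2, the shared partner receptor, was at 0.85, not called. Of the other ligands, neuregulin 1, Nrg1, rose by 1.85 (edgeR adjusted p = 0.00106) among 2 tested, and Ereg and Epgn had too few counts. Of 4 genes for ligand shedding 3 rose and none fell, with a median of 1.27. They were the iRhom genes Rhbdf1 (1.74, edgeR adjusted p = 0.00112) and Rhbdf2 (1.93, adjusted p = 0.00169), which carry ADAM17 to the surface, and the protease Adam10 (0.80, adjusted p = 0.0148). Adam17 itself was at 0.54, not called.

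Downstream genes were split in the same sums, which carry the same limit. Of 9 feedback inhibitors 4 fell and 1 rose, with a median of -0.54. Errfi1, which encodes the EGFR inhibitor MIG6, fell by 1.72 (edgeR adjusted p = 1.23e-04), and the ERK phosphatase gene Dusp6 fell by 0.96. Of 8 transcripts known to rise with ERK signalling 4 rose and 2 fell, with a median of 1.13. Myc rose by 3.09 (edgeR adjusted p = 1.72e-04) and Egr1 by 1.30 (adjusted p = 0.00187), while Ccnd1 fell by 1.68 (adjusted p = 1.92e-04) and Etv5 by 1.62 (adjusted p = 0.00499). Of 5 adaptors Shc1 rose by 0.75 and Sos1 fell by 1.05. Scaled to total counts, 8779 of 16420 genes were called, 87.4% of them higher, with a median of 0.82 over all genes. Under that scaling 2 of the 3 receptors, all 4 shedding genes and 2 adaptors were called higher and none of them lower, 1 feedback inhibitor fell and 2 rose, with a median of 0.24, and 6 of the 8 ERK transcripts rose and 1 fell. On day 14, Erbb3 was 1.20 higher and Erbb4 1.53 lower than in the control (log2 changes 1.20 and -1.53), and Rhbdf1 was 1.39 higher, with no other gene of these lists called beside 7.24% of all genes.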

How the data were processed

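The authors deposited 1 table of gene counts per library, whole numbers for each gene and cell barcode. Reads were aligned with Bowtie2 2.2.7 to mm10 per the submitters' processing notes; the counter, annotation and UMI handling are not given in the sources used here, and the counts are taken as UMIs from the method. The 6 members, the gates and the pathway lists were chosen with earlier results of these data known. The rule for naming was all 6 members, up to 4 genes of each pathway list with the lowest p on day 7 against control in tubule-gated cells, and the 5 genes most alike to each member. All 84 gate markers were found, of which 1 marker of the podocyte gate is not reported here.

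Of 64803 barcodes holding 173806985 UMIs, 50378 were kept with at least 500 UMIs, at least 500 genes, at most 50% mitochondrial UMIs and without the top 5% of Scrublet doublet scores per library (scanpy 1.11.5), a fixed share that can leave doublets in or take single cells out. A second gate means that a cell also met another class's minimum of 2 markers. UMIs were summed per library and class and tested with edgeR 4.0.16 (R 4.3.3) by the quasi-likelihood test with TMM scaling, filterByExpr and Benjamini-Hochberg adjustment over all genes tested, with 1 term per day. Day fits used libraries with at least 20 cells of the class, class comparisons had the library as a block, and days 1, 2 and 4, with 1 library, entered no contrast. The spread came from days 7, 11 and 14. Podocyte fits, the podocyte with thick limb and with endothelial comparisons and the Havcr1 split were added after the data were seen. Alternatives were RLE and total-count scaling, DESeq2 1.42.0, no count filter, the 2 groups alone, stricter gates, a limit of 25% mitochondrial UMIs, doublets kept and each replicate left out. Shares carry exact Clopper-Pearson and levels exact Poisson intervals at 95%. The fit between days was tried on simulated tubule-gated sums, for day 7 against control and with a fixed spread. The other steps were not tried that way. Hbegf has no sequence or position reported here, and protein sequences were not used here.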

Additional observations from a re-analysis of the deposited data

Results flagged for a closer look

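The day course of Egf differed between podocytes and the thick limb, in a comparison added after the data were seen. The difference of the changes from control to day 7 was 4.88 log2 units by edgeR's quasi-likelihood test of the interaction (SE 0.47, 2.35% of genes called, adjusted p = 8.28e-22), with podocyte levels of 340 in the control and 211 and 242 on day 7 beside thick limb levels of 7130, 80.9 and 429. From day 7 to day 11 the difference was -4.80 (SE 0.43, edgeR adjusted p = 6.81e-25, 2.02% of genes called), as podocytes went to 140 and 70.2 and the thick limb to 2179 and 2924. It was -3.84 without day 7 replicate 1 and -6.03 without day 7 replicate 2. Both lay outside its 95% interval of -5.65 to -3.95. This SE and p-value, like those of the first difference, do not cover the spread between the day 7 libraries. From control to day 11 the difference was 0.09 (95% interval -0.74 to 0.91, edgeR adjusted p = 1, 0.351% of genes called). The 2 differences share the day 7 libraries. The podocyte levels came from 71 cells in the control, 29 and 44 on day 7 and 222 and 168 on day 11. The part of these cell numbers in the differences was not tested.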

How the results depend on the processing

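The 55 tested results gave 799 values under the alternatives, of which 734 kept their direction and their side of the threshold, 41 lost their call, 20 gained one and 4 turned sign. RLE scaling changed no call. Thick limb Egf on day 11 against control, not called, was called with no count filter (-1.70), with the 2 groups alone (-1.65), with at most 25% mitochondrial UMIs (-1.56), with 3 markers per gate (-1.54) and with second-gate cells left out (-1.63), and on day 14 with the 2 groups alone (-0.33). Scaling to total counts called the day 7 rises of tubular Hbegf (1.33) and proximal Egfr (1.34) and turned the day 7 fall of proximal Hbegf to 0.0454. Proximal Hbegf also lost its day 7 call with the 2 groups alone (-0.78). Doublets kept called the day 7 fall of podocyte Egf (-1.43). Distal convoluted Hbegf on day 11 lost its call with DESeq2 (1.48), at most 25% mitochondrial UMIs (1.27) and second-gate cells left out (0.0656). Tubular Tgfa on day 7 lost its call with DESeq2 (2.79) and second-gate cells left out (2.22), and proximal Egfr between days 11 and 14 with DESeq2 (0.75), 3 markers (0.71) and second-gate cells left out (0.71). Without second-gate cells the day 7 difference of Egf between thick limb and distal convoluted cells turned to -0.34, from day 7 replicate 2 alone since replicate 1 then had under 20 distal convoluted cells, and thick limb Hbegf on day 14 turned to -0.29. That setting also moved called values to -4.50 for tubular and -5.61 for endothelial Egf from control to day 7, to -2.39 for thick limb Hbegf from day 7 to day 14, and to 3.85 and -3.86 for the podocyte and thick limb differences of Egf to and from day 7, again from day 7 replicate 2 alone, which were 4.02 and -4.20 with doublets kept. Leaving out single replicates gave ranges of -1.79 to -1.40 for thick limb Egf on day 11, 0.26 to 0.80 for tubular Hbegf on day 7, 1.83 to 1.89, 1.10 to 1.73 and 0.84 to 0.94 for thick limb, distal convoluted and proximal Hbegf on day 11, 2.56 to 2.92 for tubular Tgfa on day 7, 0.54 to 1.10 for proximal Egfr between days 11 and 14 and -0.38 to 0.37 for the thick limb and distal convoluted difference of Egf. The causes were not tested.

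Deviations of same-numbered libraries of days 7, 11 and 14 correlated at -0.09 to 0.12, so no strong pairing by replicate number was seen. With 2 libraries a day this cannot show that the libraries were unpaired. With the number as a replicate block, thick limb Egf rose by 5.38 from day 7 to day 14, and none of the 13 results fitted that way changed its call.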

Other observations

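The genes with the most similar pattern to each member over 88 sums of a class in a library, of at least 50 cells, are given by Pearson's r of log2(CPM + 1), as a description. The sums of a library share its preparation and depth. For Egf they were Wfdc15b (0.86), Gm15241 (0.80), Gpx6 (0.80), Dusp15 (0.78) and Ppp1r1a (0.76). For Hbegf they were Nfib (0.73), Ddit4 (0.72), Unc119b (0.70), Id1 (0.70) and Trim47 (0.69). For Btc they were Kcne1 (0.74), A930017K11Rik (0.72), Gm10664 (0.72), Aqp4 (0.72) and Mcoln3 (0.72). For Egfr they were C2 (0.71), Steap1 (0.70), H6pd (0.70), Bicc1 (0.68) and Spns3 (0.68). Areg and Tgfa, at means of 3.88 and 1.89 CPM over these sums, were under the minimum of 5.

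Tubular cells with at least 2 general epithelial markers but no segment had an Hbegf level of 838 CPM in the first library of day 11 and 539 in the second, beside 543 and 600 in endothelial cells, after 384, 153 and 230 on days 1, 2 and 4 and 283 and 285 on day 7. Neutrophils had 167 on day 1 and 94.6 on day 2. Cells with Havcr1 and no segment had 170, 264 and 104 CPM of Hbegf on days 1, 2 and 4 and 152 and 297 on day 7. Podocyte Hbegf was 6.41 in the control, 159 and 89.2 on days 1 and 2 and 79.1 and 24.2 on day 7. It was 10.3 and 9.36 by day 11, in 222 and 168 podocytes, beside 29 to 71 in the earlier libraries given. Principal cells had 1 Tgfa UMI in the control and 6 and 14 on day 7.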
